A study of Mus musculus with 4 samples.

Results

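Pyramidal neurons of hippocampal CA1 were followed as 1091 nuclei, out of 36094 nuclei kept in the series and 36619 deposited. Nuclei entered with over 600 detected genes and a mitochondrial share under 5% of their unique molecular identifiers (UMIs, each marking 1 captured RNA molecule). It was counted as glutamatergic with at least 2 UMIs of *Slc17a7*, the vesicular glutamate transporter of cortical and hippocampal excitatory neurons, and at most 1 UMI of *Gad1* and *Gad2*, the GABA-synthesizing enzymes. A CA1 nucleus then had a UMI in at least 3 of 6 marker genes, *Fibcd1*, *Gm2115*, *2310002F09Rik*, *B230110G15Rik*, *4921539H07Rik* and *Pou3f1*. The nuclei were thus chosen by their measured counts of these 9 genes, so the genes of the rule, and the difference between CA1 and other nuclei, are given as a description.

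CA1 pyramidal neurons are the main output cells of the hippocampal circuit, receiving Schaffer collaterals from CA3 and projecting to the subiculum and cortex. Like all secretory and membrane-building cells they clear misfolded proteins of the endoplasmic reticulum (ER) through ER-associated degradation (ERAD), in which SEL1L holds the ubiquitin ligase HRD1 (encoded by *Syvn1*) and the derlins in 1 complex at the ER membrane. When folding load exceeds capacity, the sensors IRE1α, PERK and ATF6 of the unfolded protein response (UPR) raise chaperones, folding enzymes and ERAD components.

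Cortex with hippocampus was taken from mice aged 5 weeks, and nuclei were sorted by flow cytometry before 10x Genomics 3′ sequencing (v3). There were 4 libraries of 1 mouse each. Of these, 2 carried floxed *Sel1L* alleles without the Cre by their labels (Sel1L flox/flox, here Sel1L fl/fl), and 2 carried the same floxed alleles with Cre driven by the Synapsin I promoter (Sel1L Syn-Cre, here Sel1L SynCre), so that recombination was directed to neurons and both groups shared the floxed alleles. The question put to CA1 was whether its RNA differed between the labels, and whether any difference was the same as in other hippocampal neurons of the same mice.

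The libraries labelled Sel1L fl/fl (1 and 2) gave 456 and 215 CA1 nuclei, and those labelled Sel1L SynCre (1 and 2) gave 190 and 230. In that order, which all lists of 4 values below follow, they held 8248156, 3587227, 3111341 and 4106604 UMIs. The median CA1 nucleus had 15750, 15009, 14557.5 and 14471.5 UMIs and 4542, 4425, 4415.5 and 4549 genes. The first library therefore held more CA1 nuclei than the others, at a similar depth per nucleus. A doublet score marked 80, 20, 20 and 25 of the CA1 nuclei (17.5%, 9.30%, 10.5% and 10.9%). The share of all kept nuclei to be marked was set beforehand from the number deposited, at 10.1%, 6.78%, 6.54% and 5.89%. The marked shares are therefore not compared between libraries. Over the 6 pairs of libraries, 125 cell barcodes were shared, and none of them was a CA1 nucleus in both libraries.

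The labels were checked on the RNA of the transgene and of the target. Cre UMIs numbered 15, 0, 4 and 7 in CA1 nuclei (1.82, 0, 1.29 and 1.70 CPM, which are the UMIs of a gene per 1000000 UMIs of the summed nuclei). The library labelled Sel1L fl/fl 1 had an exact 95% Poisson interval of 1.018 to 2.999 CPM, and at the count of 0 in Sel1L fl/fl 2 the upper bound was 1.03 CPM. The Cre RNA was thus counted in a library labelled as lacking it, as high as in the libraries labelled Sel1L SynCre. In dentate gyrus (DG) granule neuron nuclei, chosen in the same way with their own markers, Cre was at 7.68, 0, 5.08 and 7.27 CPM. In the same DG nuclei, the library labelled Sel1L fl/fl 1 had *Sel1l* and the ER stress gene *Derl3* at 74.2 and 0.720 CPM, near the 73.6 and 0.538 CPM of Sel1L fl/fl 2 and below both libraries labelled Sel1L SynCre. Whether this library came from a mouse that carried the Cre or bears a wrong label cannot be told apart from these values, and each fl/fl value below is that of the label. *Syn1*, the gene whose promoter drives the Cre, was at 125, 141, 133 and 143 CPM in CA1 and at 125, 115, 121 and 120 CPM in DG. *Xist* and the Y-linked *Ddx3y* were at 2.30, 1149, 2.89 and 1122 CPM and at 38.7, 0, 34.4 and 0 CPM in CA1, so each label held 1 male and 1 female mouse, and the libraries numbered 1 were male and those numbered 2 female. All directions below are between libraries as labelled, and results were also computed without the library labelled Sel1L fl/fl 1.

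CA1 identity was checked on genes outside the rule. *Ndst4*, a heparan sulfate modifying enzyme used as a CA1 marker, had a UMI in 60.1%, 66.5%, 50.5% and 54.3% of CA1 nuclei, against 11.6%, 13.9%, 8.61% and 7.77% of other glutamatergic nuclei. *Wfs1*, an ER membrane protein enriched in dorsal CA1, had one in 23.2%, 18.1%, 21.6% and 25.7% of CA1 nuclei, against 4.26%, 4.61%, 5.02% and 4.96%. Both markers were detected more often in CA1 nuclei of every library. Ranked by the lowest of the 4 libraries' ratios over the remaining glutamatergic nuclei, the leading genes outside the rule, among those with a mean of at least 50 CPM in either set, were *1700007F19Rik*, at a mean of 78.5 CPM against 7.53 CPM, *Stac* at 98.9 against 11.1 CPM, *Cntnap5c*, a neurexin-family adhesion gene, at 639 against 87.7 CPM, and *Ror1*, a receptor tyrosine kinase-like gene, at 210 against 29.2 CPM. *Ndst4* came next, and then *Galntl6*, a glycosyltransferase gene, at 3650 against 625 CPM. Lower in that order but more abundant was *Epha6*, an ephrin receptor, at 4901 against 979 CPM. Those most reduced in CA1 included *Dpp10*, an auxiliary subunit of A-type potassium channels, at 1363 against 8579 CPM, the kainate receptor gene *Grik3* at 19.3 against 138 CPM and *Foxp2*, a transcription factor of deep-layer cortex, at 14.2 against 112 CPM.

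The rule admitted nuclei with exactly 3 markers, and these carried more RNA of other glutamatergic neurons than nuclei with more markers. *Tshz2*, a gene of deep-layer and retrosplenial cortex, was at 402 CPM in the 1263 nuclei just outside the rule (2 markers), 382 CPM in the 554 just inside it (3 markers), and 86.3, 41.6 and 1.32 CPM in the 317, 182 and 38 nuclei with 4, 5 and 6 markers. *Spock1* was at 497, 258, 104, 88.5 and 134 CPM in the same order of sets, and *Grik4*, a kainate receptor subunit abundant in CA3, at 353, 240, 106, 81.7 and 129 CPM. *Zbtb20*, a transcription factor required for CA1 identity, was higher the more markers a nucleus had, at 1189, 1478, 1880, 2389 and 2438 CPM. *Ndst4* was at 121 CPM outside the rule and at 279, 260, 268 and 167 CPM inside it. Nuclei with 4 or more markers made up 55.0%, 48.8%, 41.6% and 44.3% of the CA1 nuclei, and that share was smaller in both SynCre libraries than in either fl/fl library. The set is accordingly one of CA1-enriched nuclei, and for several results below the value in the 537 nuclei with 4 or more markers is given too.

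**Figure D1:**
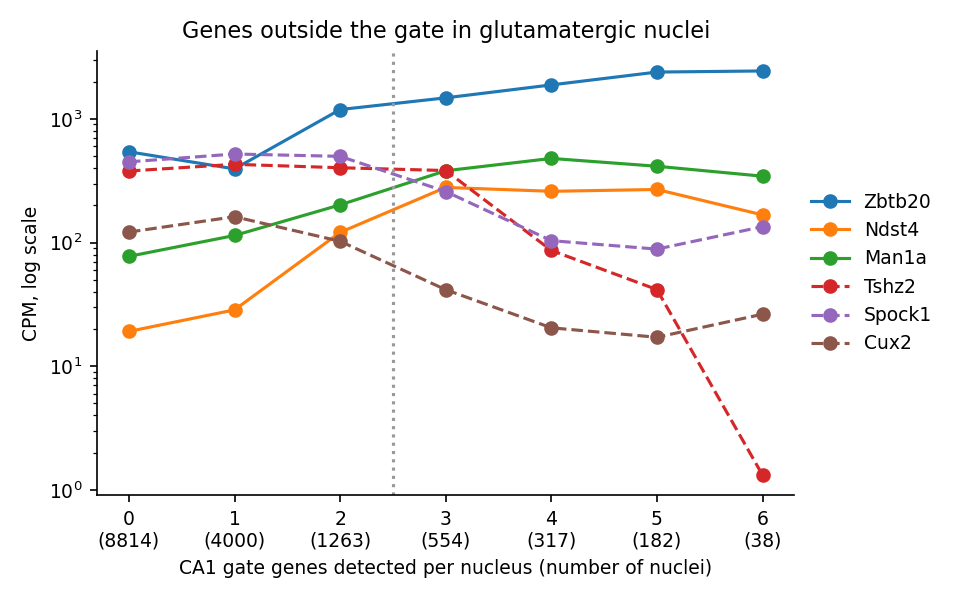
CPM (log scale) of 6 genes outside the rule in glutamatergic nuclei summed over the 4 libraries, by the number of CA1 marker genes detected per nucleus, with the number of nuclei in parentheses and a dotted line at the threshold. *Zbtb20*, *Ndst4* and *Man1a* (solid) are higher inside the threshold, while *Tshz2*, *Spock1* and *Cux2* (dashed) keep falling from 3 to 4 markers.

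CA1 nuclei were 3.69%, 2.55%, 2.36% and 3.18% of the kept nuclei, with 95% Wilson intervals of 3.37% to 4.04%, 2.23% to 2.91%, 2.05% to 2.71% and 2.80% to 3.61%. The means were 3.12% ± 0.806 (SD, n = 2) and 2.77% ± 0.583 (SD, n = 2), and the libraries of the labels overlapped (two-sided exact permutation test, p = 0.667). Of the glutamatergic nuclei, CA1 nuclei were 8.73%, 6.48%, 5.84% and 6.82%, and the labels overlapped again (two-sided exact permutation test, p = 0.667). With 4 or more markers required, they were 4.81%, 3.17%, 2.43% and 3.02%, both SynCre libraries below both fl/fl libraries. With every nucleus thinned to 3000 UMIs first, they were 1.38%, 1.86%, 0.924% and 1.36%, on 23, 16, 8 and 12 nuclei. There Sel1L fl/fl 1 and Sel1L SynCre 2 nearly tied (95% Wilson intervals 0.922% to 2.06% and 0.781% to 2.37%). Each setting gave p = 0.3333 (two-sided exact permutation test), the smallest p possible with 2 mice against 2. Both settings count genes of the rule, so these shares are a description. Of those genes, *B230110G15Rik* was found in fewer CA1 nuclei of both SynCre libraries (33.8%, 40.9%, 21.6% and 21.3%). *4921539H07Rik* was found in more (80.9%, 78.6%, 84.2% and 83.9%). Intervals cover counting error only.

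For the comparison of the labels, UMIs of CA1 nuclei were summed within each library into a pseudobulk and tested with edgeR's quasi-likelihood test over all genes. Of 13086 genes tested, 0 (0%) passed an adjusted p of 0.05, and 1027 (7.85%) had an unadjusted p below 0.05, of which 600 (4.59%) had a positive and 427 (3.26%) a negative SynCre over fl/fl fold change. DESeq2 called 13 genes, edgeR's earlier quasi-likelihood test 0 and its likelihood ratio test 53. The median log2 fold change over all genes tested was 0.00460. Without the library labelled Sel1L fl/fl 1, only *Rorb* passed, and leaving out any other library gave 22 to 52 genes (23 for Sel1L fl/fl 2, 52 for Sel1L SynCre 1 and 22 for Sel1L SynCre 2). In the CA1 nuclei with 4 or more markers, only *1700016P03Rik* passed.

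**Figure D2:**
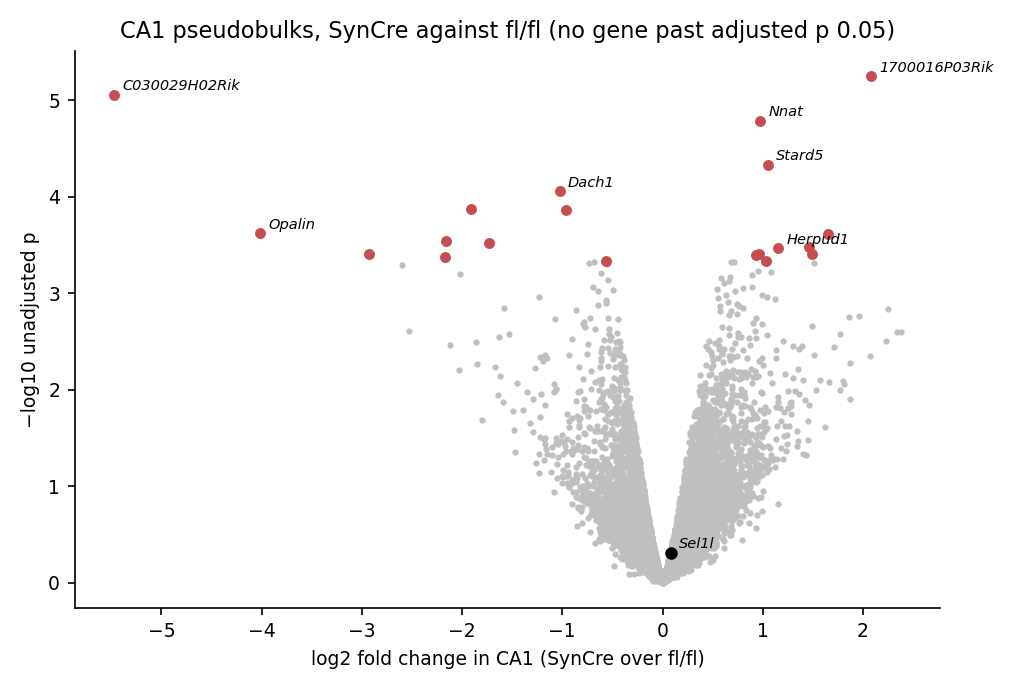
Log2 fold change of SynCre over fl/fl in CA1 against −log10 of the unadjusted p (edgeR), 1 point per gene tested, with the 10 genes of lowest p in each direction in red and *Sel1l* in black. No gene passed an adjusted p of 0.05, and *Sel1l* lies next to the origin.

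*Sel1l* (ENSMUSG00000020964, chr12:91806043-91849157 on the minus strand, GRCm38) is the gene targeted by the Cre. In CA1 it was at 109, 107, 122 and 114 CPM, within a narrow range in all 4 libraries. The log2 fold change was 0.08 (standard error, SE, 0.118, edgeR adjusted p = 0.900), and -0.05 in the nuclei with 4 or more markers. In DG the same gene was at 74.2, 73.6, 190 and 178 CPM, and in both libraries labelled Sel1L SynCre it stood above both others. Counts at the 3′ end need not lie in the part removed by the Cre, so this level does not check the deletion in either cell type. After thinning each nucleus to 3000 UMIs, a *Sel1l* UMI was found in 28.1%, 31.2%, 28.4% and 35.7% of CA1 nuclei (two-sided exact permutation test, p = 0.667), against 17.3%, 28.6%, 47.7% and 49.1% of DG nuclei. Unthinned, the CA1 shares were 81.4%, 76.7%, 77.4% and 79.1%.

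*Derl3* (ENSMUSG00000009092, chr10:75893413-75895941 on the plus strand), a derlin that is induced by the UPR, had 3, 1, 9 and 8 UMIs in all CA1 nuclei together (0.364, 0.279, 2.89 and 1.95 CPM), too few for the filter on low counts. In DG it was at 0.720, 0.538, 52.7 and 30.4 CPM, above the CA1 level in both libraries labelled Sel1L SynCre. At 3000 UMIs per nucleus, *Derl3* was seen in 0 of 455, 0 of 215, 3 of 190 and 1 of 230 CA1 nuclei. The counts of 0 allow shares of up to 0.837% and 1.76% (upper ends of the 95% Wilson intervals). The shares of 1.58% and 0.435% in the libraries labelled Sel1L SynCre lay below those of oligodendrocyte nuclei thinned to the same number (0.0697%, 0.178%, 9.87% and 3.09%), which are glia outside the reach of a neuronal promoter. Before thinning, the median UMI counts were 14557.5 and 14471.5 in these CA1 nuclei and 3070 and 2739 in the oligodendrocyte nuclei, and the CA1 shares were 0.658%, 0.465%, 3.68% and 3.04%. Unthinned, the oligodendrocyte shares were 0.177%, 0.235%, 10.9% and 3.51%, and thinning kept 223 of 440 and 162 of 399 of these nuclei in the SynCre libraries, the deeper ones. In both SynCre libraries the CA1 share was thus no higher than in oligodendrocyte nuclei at 3000 UMIs, and no expression in CA1 is read from it. In DG the shares at 3000 UMIs were 0.292%, 0.595%, 14.1% and 8.49%, and in both SynCre libraries the 95% Wilson intervals (9.08% to 21.1% and 4.53% to 15.4%) overlapped those of oligodendrocyte nuclei (6.61% to 14.5% and 1.33% to 7.02%). At 6000 UMIs the SynCre shares were 31.6% and 18.6% in DG and 14.3% and 11.6% in oligodendrocyte nuclei, again with overlapping intervals. Unthinned, the DG shares were 0.877%, 0.595%, 43.8% and 34.9%. Their intervals in the SynCre libraries (35.5% to 52.4% and 26.5% to 44.4%) lay above those of unthinned oligodendrocyte nuclei (8.33% to 14.2% and 2.10% to 5.80%), at unlike depth. Of the 14 CA1 nuclei with a *Derl3* UMI in the libraries labelled Sel1L SynCre, 9 had exactly 3 markers, and 1 also had a Cre UMI.

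Among 20 ERAD genes, 19 were tested in CA1, 0 passed the adjusted threshold, and 2 had an unadjusted p below 0.05, both higher (4.59% of all genes tested), at a median log2 fold change of 0.06. *Herpud1*, a membrane scaffold of the HRD1 complex induced by the UPR, was the first of these, at 11.2, 7.81, 20.6 and 24.6 CPM. Both libraries labelled Sel1L SynCre exceeded both others, with a log2 fold change of 1.16 (SE 0.227, edgeR adjusted p = 0.239). Leaving out the library labelled Sel1L fl/fl 1 gave 1.49. Nuclei with exactly 3 markers had 13.4, 8.86, 28.7 and 29.6 CPM of *Herpud1* and nuclei with 4 or more 9.36, 6.59, 9.74 and 17.5 CPM, so that the log2 fold change in the latter was 0.68 (edgeR adjusted p = 0.806). *Ube2j1*, an ER ubiquitin-conjugating enzyme, was at 36.4, 34.3, 45.6 and 49.2 CPM (log2 fold change 0.38, edgeR adjusted p = 0.557). *Syvn1* was at 9.09, 9.76, 12.9 and 11.4 CPM, *Edem1*, a mannosidase-like lectin of glycoprotein disposal, at 11.3, 10.0, 12.5 and 9.74 CPM, and the lectins *Os9* and *Erlec1* at 30.6, 26.5, 28.0 and 26.3 CPM and at 57.7, 56.3, 59.1 and 66.0 CPM. *Vcp*, the ATPase that pulls substrates from the membrane, was at 50.1, 50.5, 56.6 and 52.4 CPM. None of these 5 had an unadjusted p below 0.05. Further genes of the list (*Edem2*, *Edem3*, *Herpud2*, *Ube2g2*, *Derl1*, *Derl2*, *Fam8a1*, *Selenos*, *Ubxn4* and *Aup1*) had log2 fold changes from -0.22 for *Edem3* to 0.18 for *Aup1*, none at an unadjusted p below 0.05.

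**Figure D3:**
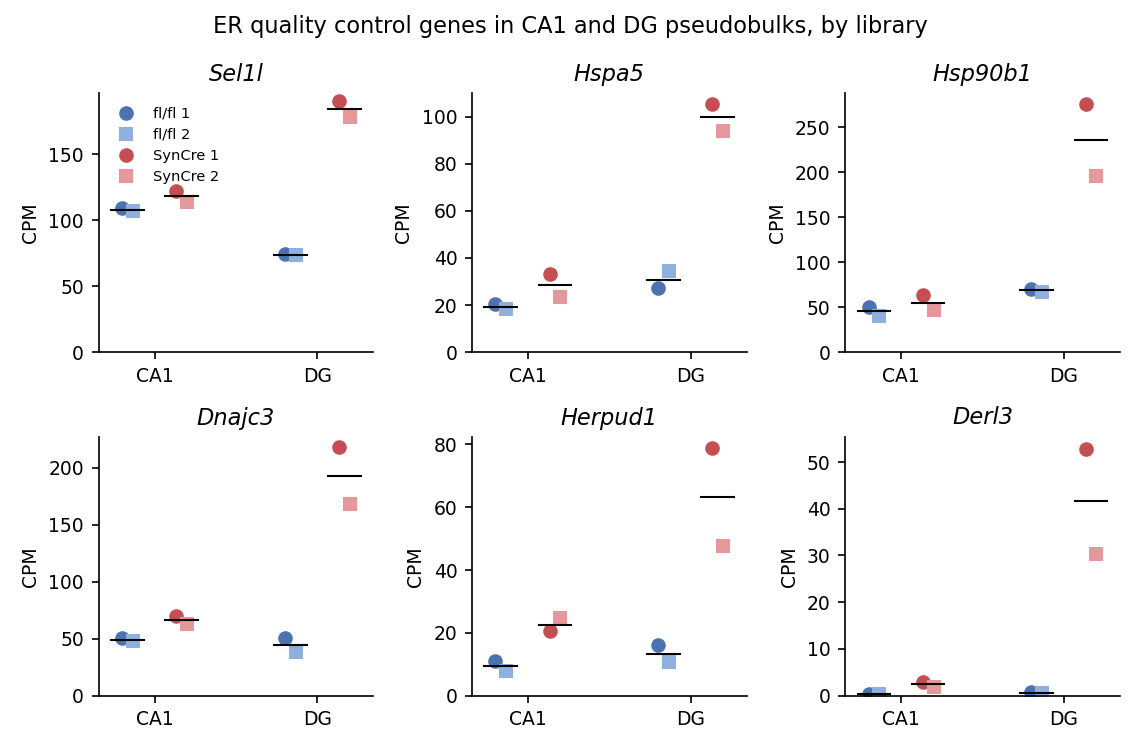
CPM of 6 ER quality control genes in CA1 and DG nuclei, 1 point per library and a line at the mean of each label (n = 2). For *Sel1l*, *Hspa5*, *Hsp90b1*, *Dnajc3*, *Herpud1* and *Derl3* the distance between labels is wider in DG than in CA1, where *Sel1l* stays between 107 and 122 CPM.

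ER chaperones and folding enzymes were fixed as a list of 19 genes. In CA1, 18 were tested, 0 passed the adjusted threshold, and 4 had an unadjusted p below 0.05, all with a positive fold change (4.59% of all genes tested). The median log2 fold change of the list was 0.27 (15 of 18 positive) beside 0.00460 over all genes. For 10 of the 18, both SynCre libraries lay above both fl/fl libraries, as they did for 23.8% of all genes tested. *Manf*, a secreted ER stress factor, was at 45.0, 49.3, 75.5 and 68.4 CPM (log2 fold change 0.57, SE 0.137, edgeR adjusted p = 0.316). *Dnajc3*, which encodes the HSP40 co-chaperone P58IPK, was at 50.2, 48.2, 69.7 and 63.1 CPM (0.38 on the log2 scale, edgeR adjusted p = 0.522). *Hspa5*, which encodes the main HSP70 of the ER, BiP, was at 20.2, 18.4, 33.1 and 23.6 CPM (0.49, edgeR adjusted p = 0.613). *Hsp90b1*, which encodes the HSP90 of the ER, GRP94, was at 50.6, 40.1, 63.3 and 46.8 CPM, and its libraries overlapped between the labels. In the nuclei with 4 or more markers, the median of the list was 0.13 and 0 genes had an unadjusted p below 0.05, and in nuclei admitted with 2 or more markers these values were 0.46 and 10. The shares of all genes in these fits are not given here, so the counts are not compared.

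Promoter stretches that hold the ER stress response element are shown for *Derl3* and for the 5 genes of this list that have it and whose fold change differed between CA1 and DG below. The element was searched as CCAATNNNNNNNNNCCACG on both strands of RefSeq promoters (250 bases before to 50 after the start, GRCm38.p6). It was in 39 of 32851 promoters (0.119%), in 7 of the 16 genes of this list that had a promoter entry, in 2 of 15 ERAD genes (*Derl3* and *Syvn1*) and in 0 of 16 UPR regulators. *Calr* and *Creld2* also held it and did not pass against DG, while *Pdia3*, *Pdia4* and *Sdf2l1* passed without a match in this window. Capitals mark the match, and each stretch reads 5′ to 3′ on the strand of its gene. *Hspa5* is at chr2:34772005-34772063 (plus), *Hsp90b1* at chr10:86705513-86705571 (minus), *Dnajc3* at chr14:118937807-118937865 (plus), *Pdia6* at chr12:17266471-17266529 (plus), *Canx* at chr11:50325780-50325838 (minus) and *Derl3* at chr10:75893222-75893280 (plus). In the stretches of *Hsp90b1* and *Derl3* the element reads on the opposite strand, and *Hsp90b1* has another match on its own strand, 212 bases before the start, that is not shown.
Hspa5: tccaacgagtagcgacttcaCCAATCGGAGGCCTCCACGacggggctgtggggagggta
Hsp90b1: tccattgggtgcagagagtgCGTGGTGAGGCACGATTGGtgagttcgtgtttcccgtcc
Dnajc3: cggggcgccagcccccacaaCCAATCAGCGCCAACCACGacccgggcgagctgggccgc
Pdia6: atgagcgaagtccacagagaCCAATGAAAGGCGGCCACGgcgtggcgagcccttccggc
Canx: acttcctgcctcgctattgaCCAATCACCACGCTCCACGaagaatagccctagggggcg
Derl3: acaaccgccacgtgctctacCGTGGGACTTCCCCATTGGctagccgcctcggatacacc
A match is a description of the letters and not of binding.

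The difference between labels in CA1 was then set against that in DG in 1 model over both cell types of the 4 mice, with library as a block. DG counted 744 nuclei (342, 168, 128 and 106), none of which met the CA1 rule, because nuclei that met both rules (9, 0, 1 and 2) were kept in CA1. Of 13783 genes tested, 139 (1.01%) passed an adjusted p of 0.05, 117 (0.849%) with a lower and 22 (0.16%) with a higher SynCre over fl/fl fold change in CA1 than in DG, and 1381 (10%) had an unadjusted p below 0.05, 513 (3.72%) higher and 868 (6.3%) lower. Leaving out 1 library gave 141 genes (without Sel1L fl/fl 1, 79 of them among the 139), 77 (Sel1L fl/fl 2), 59 (Sel1L SynCre 1) and 103 (Sel1L SynCre 2). With 4 or more CA1 markers 27 passed, 25 of them among the 139. With the replicate number, and so the sex of the mice, as a block 29 passed, 28 of them among the 139. The result rests on how DG nuclei were taken. With 4 DG markers required in place of 3, DG held 120, 55, 35 and 31 nuclei and 0 genes passed, and with 2 required 95 did. DESeq2 called 19 genes and the likelihood ratio test 286.

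*Sel1l* was among the genes that differed most clearly, with a log2 fold change of 0.08 in CA1 and 1.28 in DG and a difference of -1.21 (SE 0.145, edgeR adjusted p = 0.000770). The difference was -1.19 without the library labelled Sel1L fl/fl 1, -1.29 with 4 or more CA1 markers and -1.37 with 4 or more DG markers, where the edgeR adjusted p was 0.0824. Of the ERAD list it was the only 1 of 20 genes to pass (0.849% of all genes tested), while the median difference of the list was -0.51 beside -0.02 over all genes. *Herpud1* was at 16.1, 10.8, 78.8 and 47.6 CPM in DG, and its difference of -0.97 (SE 0.324, edgeR adjusted p = 0.250) did not pass. *Derl3*, with a difference of -3.18 (SE 1.12, edgeR adjusted p = 0.283), did not pass either at its low CA1 counts.

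Of the ER chaperones and folding enzymes, 8 of 18 passed, all with the smaller fold change in CA1 (0.849% of all genes tested), and 17 were lower at an unadjusted p below 0.05 (6.3% of all genes tested). The median difference was -1.19, with a median fold change of 1.48 in DG and 0.27 in CA1 on the log2 scale. *Dnajc3* was at 50.9, 38.7, 218 and 168 CPM in DG and differed by -1.66 (SE 0.173, edgeR adjusted p = 0.000278). *Hsp90b1* was at 70.6, 66.7, 276 and 196 CPM in DG and differed by -1.54 (SE 0.164, edgeR adjusted p = 0.000278). *Hspa5*, at 27.1, 34.4, 105 and 93.8 CPM in DG, differed by -1.25 (SE 0.231, edgeR adjusted p = 0.0150), and did not pass with the replicate block (edgeR adjusted p = 0.0709). For all 3 genes, the gap between DG and CA1 was wider in each SynCre library than in either fl/fl library. The disulfide isomerase genes *Pdia3*, *Pdia4* and *Pdia6* differed by -0.96, -2.04 and -1.32, *Canx*, which encodes the lectin chaperone calnexin, by -0.91 and *Sdf2l1*, which encodes a partner of ER HSP40 proteins, by -3.50, the last on 0 UMIs in DG of the library labelled Sel1L fl/fl 2. *Hyou1* (-1.26, edgeR adjusted p = 0.089) and *Calr* (-0.52, edgeR adjusted p = 0.431) did not pass.

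**Figure D4:**
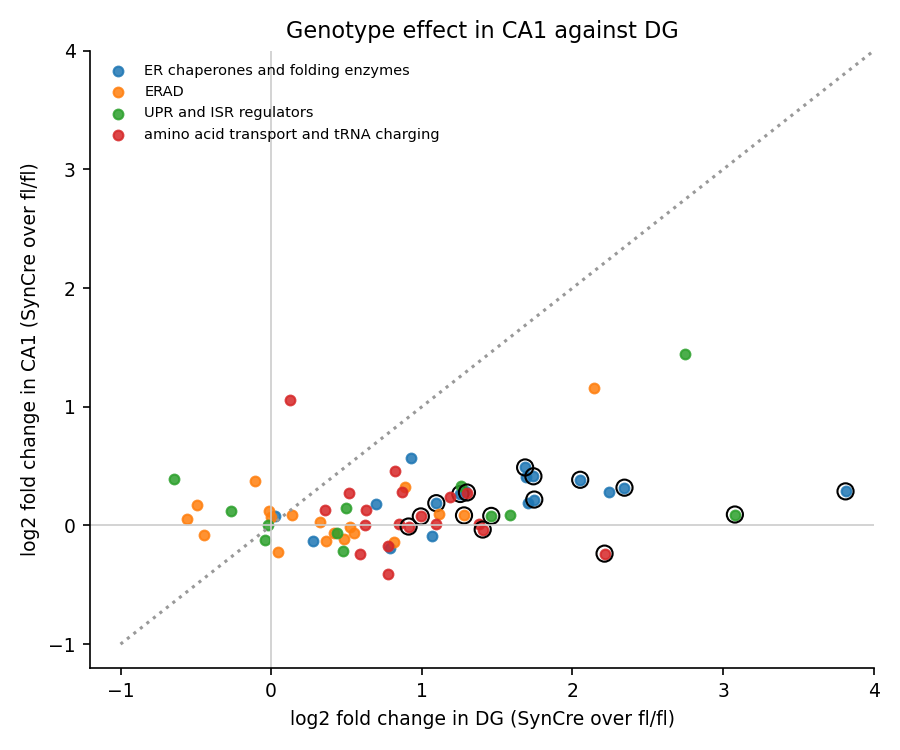
Log2 fold change (SynCre over fl/fl) of the genes of 4 lists in CA1 (vertical axis) against DG (horizontal axis), 1 point per gene, with a black ring around genes whose difference passed an adjusted p of 0.05 and a dotted line where both are equal. All ringed genes lie below the line, among them *Creb3l2* at 3.08 in DG and 0.09 in CA1.

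Of the UPR and integrated stress response regulators, 14 of 19 were tested in CA1, 0 passed, and 2 were higher at an unadjusted p below 0.05, beside 4.59% of all genes tested (median log2 fold change 0.09). These were *Ddit3*, which encodes the stress-induced factor CHOP, at 3.15, 1.39, 11.2 and 3.90 CPM, and *Ern1*, which encodes IRE1α, at 29.2, 22.6, 35.0 and 36.3 CPM (edgeR adjusted p = 0.557 and 0.614). *Xbp1*, the target of IRE1α splicing, was at 17.0, 16.7, 23.5 and 20.5 CPM and *Atf6* at 114, 117, 105 and 114 CPM. Splicing of *Xbp1* is not seen in 3′ counts. Against DG, 2 of 16 passed with the smaller fold change in CA1, as did 0.849% of all genes tested. *Creb3l2*, an ER-bound transcription factor related to ATF6, was at 26.3, 19.5, 25.1 and 26.3 CPM in CA1 and at 6.72, 2.69, 54.6 and 37.7 CPM in DG (difference -3.02, SE 0.326, edgeR adjusted p = 0.000278). CA1 thus had the higher level of *Creb3l2* in both fl/fl libraries and the lower level in both others. *Eif2ak3*, which encodes PERK, was at 22.9, 18.4, 21.9 and 23.9 CPM in CA1 and differed by -1.41 (SE 0.262, edgeR adjusted p = 0.0153).

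Of 15 serine and one-carbon enzymes, 10 were tested in CA1 and 0 passed, with 1 higher at an unadjusted p below 0.05, beside 4.59% of all genes tested (median 0.06). It was *Psph*, the last enzyme of serine synthesis, at 13.6, 14.2, 20.6 and 18.5 CPM. *Psat1*, the enzyme before it, was at 4.24, 3.62, 2.89 and 2.92 CPM and *Mthfd2*, a mitochondrial folate enzyme, at 9.58, 18.1, 15.7 and 13.6 CPM. Against DG 0 of 12 passed, and 3 were lower at an unadjusted p below 0.05, beside 6.3% of all genes tested. The median difference of this list was -0.66, with 1 of 12 positive, at a median log2 fold change of 0.67 in DG. All 20 genes of amino acid transport and tRNA charging were tested in CA1 and 0 passed (median 0.03). At an unadjusted p below 0.05 there were 2, both higher, beside 4.59% of all genes tested. These were *Slc38a2*, a neutral amino acid transporter, at 58.1, 55.2, 67.5 and 93.0 CPM, and *Slc7a11*, the cystine transporter, at 2.67, 1.67, 6.43 and 3.90 CPM. Against DG, 5 of 20 passed with the smaller fold change in CA1 (0.849% of all genes tested), at a median difference of -0.91. The cationic amino acid transporter *Slc7a1*, at 23.8, 27.3, 23.8 and 20.7 CPM in CA1 and 10.6, 7.53, 55.9 and 33.7 CPM in DG, differed by -2.40 (SE 0.296, edgeR adjusted p = 0.000934). The others were the tRNA synthetases *Cars*, *Aars*, *Iars* and *Nars*, which differed by -1.43, -1.03, -0.91 and -0.90.

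Other genes of lowest p against DG were abundant in CA1 and low in DG. *Galntl6* was at 4690, 4012, 3414 and 2484 CPM in CA1 and 132, 106, 392 and 232 CPM in DG (difference -1.95, SE 0.135, edgeR adjusted p = 1.82e-06). The neurexin-family gene *Cntnap2* (-1.22), the heparan sulfate enzyme *Ndst3* (-1.36), the mannosidase *Man1a* (-1.90) and the noncoding *Gm10754* (-2.54) had the same arrangement of levels. With 4 or more DG markers, *Gm10754* and *Man1a* changed sign, to 1.91 and 0.28. Whether RNA of other hippocampal neurons in the DG nuclei takes part in these differences was not tested. Among the 22 genes with the larger fold change in CA1, *6530403H02Rik* was at 50.2, 56.3, 75.2 and 99.4 CPM in CA1 and 130, 140, 87.7 and 69.4 CPM in DG (difference 1.47, SE 0.197, edgeR adjusted p = 0.00176). The labels ran in opposite directions in the 2 cell types. *Smoc2*, a matricellular protein gene, was at 11.03, 12.3, 21.5 and 22.6 CPM in CA1 and 122, 120, 90.2 and 98.4 CPM in DG (1.27, edgeR adjusted p = 0.00558). For *Slc26a10* (1.75), *Cotl1*, which encodes an actin-binding protein (1.74), *Ccbe1* (1.09) and *Tafa2*, which encodes a secreted neurokine (0.81), the fold change was likewise positive in CA1 and negative in DG. *Trpm3*, a cation channel gene (0.94), *Gm28376* (0.63), *Cntnap5b* (0.76) and *Capn3*, a calpain gene (3.01), completed the 10 of lowest p. *Capn3* had 12, 6, 13 and 8 UMIs in CA1, too few for the filter there, and was tested only through its DG counts of 119, 72, 17 and 7 UMIs. With the replicate block, *6530403H02Rik* passed and the other 9 did not (edgeR adjusted p from 0.056 to 0.0922).

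A second set was taken with at least 2 of 6 CA3 marker genes (1726 nuclei), but these nuclei also carried RNA of cortical genes such as *Cux2* and *Rorb*, so they are called nuclei with CA3 markers and not CA3 neurons. Of 15431 genes, 2 (0.013%) passed, 1 (0.00648%) in each direction, and 920 (5.96%) had an unadjusted p below 0.05, 424 (2.75%) higher and 496 (3.21%) lower. *Plcxd3*, a phospholipase-like gene, was at 25.2, 27.3, 45.6 and 37.3 CPM in CA1 and 89.3, 99.1, 82.2 and 57.0 CPM in nuclei with CA3 markers (difference 1.10, SE 0.145, edgeR adjusted p = 0.0125). *Mei4*, known for meiotic recombination, was at 53.1, 51.9, 63.0 and 37.3 CPM in CA1 and 22.2, 27.8, 61.1 and 45.6 CPM in the other set (-1.23, SE 0.165, edgeR adjusted p = 0.0125). With 4 or more CA1 markers the difference of *Plcxd3* was 0.39 (edgeR adjusted p = 0.919) and that of *Mei4* -1.35. *Sel1l* was at 85.8, 83.7, 143 and 138 CPM in nuclei with CA3 markers, and its difference from CA1 of -0.61 (SE 0.109) had an edgeR adjusted p of 0.0713. For *Hspa5* it was -1.01 (edgeR adjusted p = 0.0713). With the replicate block 0 genes passed (edgeR adjusted p = 0.0863 for *Plcxd3* and 0.0519 for *Mei4*). The count ran from 0 without the library labelled Sel1L fl/fl 2 to 58 without Sel1L fl/fl 1.

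Within CA1, the gene of lowest p was *1700016P03Rik* (ENSMUSG00000085609, chr11:75172560-75177633, plus strand), a noncoding transcript that overlaps the genes of miR-212 and miR-132 on its strand and *Ovca2* on the other. It was at 17.5, 17.0, 49.8 and 101 CPM, above both fl/fl libraries in each of the others. The log2 fold change was 2.08 (SE 0.257, edgeR adjusted p = 0.0573), just above the threshold, and 2.17 with 4 or more markers (edgeR adjusted p = 0.0113) and 2.22 without marked doublets (edgeR adjusted p = 0.0271). It was 2.11 (edgeR adjusted p = 0.101) if the library labelled Sel1L fl/fl 1 was left out. In DG it was at 13.0, 9.68, 49.6 and 85.9 CPM, and the difference between the cell types of -0.44 (SE 0.238, edgeR adjusted p = 0.582) did not pass. That difference turned positive without marked doublets and with 4 or 2 DG markers required. This microRNA cluster is known as a target of CREB in neurons, and its mature products share their seed. They are shown because they are the known products of the transcript, and the mature molecules themselves were not measured. RefSeq (GRCm38.p6) places mmu-miR-132-3p at chr11:75173723-75173744 and mmu-miR-212-3p at chr11:75173443-75173464, both on the plus strand, and capitals mark bases 2 to 8.
mmu-miR-132-3p: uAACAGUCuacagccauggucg
mmu-miR-212-3p: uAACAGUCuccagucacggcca

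*Nnat*, which encodes neuronatin, a small ER membrane protein, was at 70.8, 90.3, 154 and 171 CPM in CA1 (log2 fold change 0.98, SE 0.135, edgeR adjusted p = 0.0711). It lies within *Blcap* on the opposite strand, and the sources used here do not say whether strand was used in counting. *Stard5*, a sterol-binding protein gene that overlaps *Il16*, was at 20.9, 18.4, 38.6 and 46.0 CPM (1.05, SE 0.163, edgeR adjusted p = 0.152). *Dusp5*, a nuclear phosphatase of ERK, was at 8.00, 3.90, 16.1 and 21.4 CPM, and the actin-associated *Pdlim1* at 3.27, 4.46, 9.96 and 13.9 CPM. *Gm47423*, antisense to the BDNF receptor gene *Ntrk2*, was at 15.9, 24.3, 36.0 and 74.0 CPM. In all of these both libraries labelled Sel1L SynCre lay above both others, as they did for 3116 of all genes tested (23.8%). *Nectin1* (0.96), the ribosomal protein gene *Rpl29* (0.93) and *Phactr2* (1.03) completed the 10 of lowest p with *Herpud1*, and none of them passed.

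On the lower side, the noncoding *C030029H02Rik* had 67, 19, 0 and 1 UMIs in CA1, a ratio of 52.4 between fl/fl and SynCre (95% exact binomial interval 9.17 to 2095, counting error only, edgeR adjusted p = 0.0573). This gene passed the filter on low counts only through the fl/fl libraries, where it was high, so its p is a description. It was not tested without marked doublets or with 4 or more markers, where it failed the filter on low counts. *Dach1*, a transcription factor gene, was at 41.5, 38.7, 17.4 and 23.1 CPM (-1.03 on the log2 scale, SE 0.171, edgeR adjusted p = 0.230), and *Dpy19l1*, a mannosyltransferase gene, at 47.4, 41.8, 26.0 and 21.7 CPM (-0.96, edgeR adjusted p = 0.239). *Fmn1*, an actin nucleator gene, was at 137, 147, 99.3 and 97.6 CPM, *Nrep* at 10.9, 9.48, 3.86 and 2.68 CPM and *Phldb2* at 7.40, 5.58, 1.61 and 1.46 CPM. In DG, *C030029H02Rik* (9.60, 9.14, 1.27 and 1.32 CPM), *Nrep* (26.9, 28.0, 15.9 and 11.9 CPM) and *Phldb2* (6.24, 9.14, 0.635 and 1.32 CPM) were also lower in both SynCre libraries. *Dach1* and *Dpy19l1* overlapped between the labels in DG, and *Fmn1* was higher in both SynCre libraries. None of these genes passed in the comparison of CA1 against DG. The myelin genes *Opalin*, *Mog* and *Mal* were also among the 10 and are given with the markers of other cells. *Phldb2*, *Opalin* and *Mal* likewise passed the filter on low counts only through the fl/fl libraries.

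Genes induced by neuronal activity were tested as a list of 20. In CA1, 10 had an unadjusted p below 0.05, all with a positive fold change (4.59% of all genes tested), 0 passed the adjusted threshold, and the median log2 fold change was 0.66 (16 of 20 positive) beside 0.00460 over all genes. The summed level was 623, 638, 663 and 1167 CPM, so that the library labelled Sel1L SynCre 2 stood apart from the other 3. *Homer1*, the postsynaptic scaffold gene whose short form is activity-induced, was at 227, 212, 304 and 427 CPM (0.68, SE 0.140, edgeR adjusted p = 0.239). *Pcsk1*, a prohormone convertase gene, was at 10.3, 11.99, 19.0 and 28.7 CPM (1.08, SE 0.229, edgeR adjusted p = 0.256). These 2 genes were among 9 of the 20 that lay higher in both SynCre libraries than in both fl/fl libraries, beside 23.8% of all genes tested. *Fos* was at 6.30, 4.18, 6.43 and 18.5 CPM, *Btg2* at 8.12, 8.36, 10.3 and 37.3 CPM and *Nr4a3* at 20.0045, 29.0, 27.6 and 69.2 CPM, each with its highest value by far in Sel1L SynCre 2. *Arc* (45.3, 37.1, 28.9 and 53.3 CPM), *Egr1* (41.3, 36.2, 19.3 and 50.7 CPM) and *Junb* (85.4, 61.3, 41.8 and 87.4 CPM) had their lowest and highest value in the 2 libraries labelled Sel1L SynCre. Without the library labelled Sel1L SynCre 2 the median was 0.10, and without Sel1L SynCre 1 it was 0.90. What set Sel1L SynCre 2 apart was not tested. Against DG, 2 of 20 passed with the smaller fold change in CA1 (0.849% of all genes tested), the nuclear receptors *Nr4a3* (-1.59, SE 0.327, edgeR adjusted p = 0.0273) and *Nr4a1* (-1.09, SE 0.239, edgeR adjusted p = 0.0379).

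**Figure D5:**
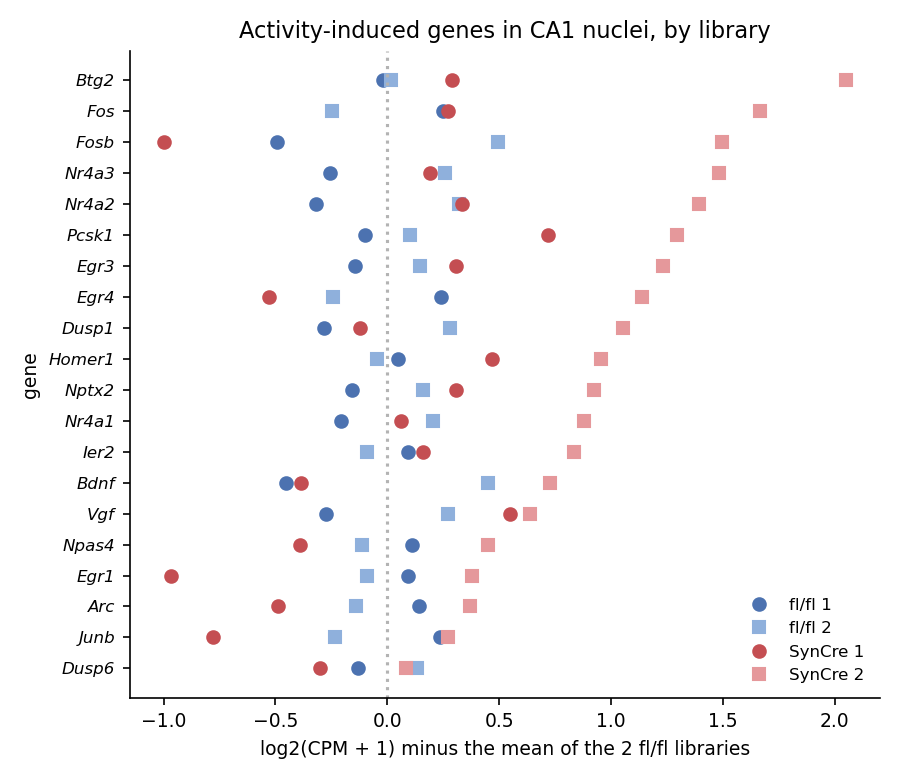
Levels of 20 activity-induced genes in CA1 nuclei as log2(CPM + 1) minus the mean of the 2 libraries labelled Sel1L fl/fl, 1 point per library, ordered by the library labelled Sel1L SynCre 2. That library lies right of 0 for all 20 genes, while the library labelled Sel1L SynCre 1 lies on both sides.

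Of 14 GABA receptor subunits tested in CA1, 7 had an unadjusted p below 0.05, all with a negative fold change (3.26% of all genes tested), and 0 passed the adjusted threshold (median -0.31). *Gabra4*, a subunit of extrasynaptic receptors, was at 97.7, 103, 80.0 and 74.0 CPM (-0.43, SE 0.124, edgeR adjusted p = 0.411). *Gabra5*, typical of hippocampal pyramidal neurons, was at 159, 175, 141 and 134 CPM. Each of these subunits was below both fl/fl libraries in both SynCre libraries, a pattern that 13.4% of all genes tested showed. Against DG, 0 of 14 passed, with a median fold change of -0.21 in DG on the log2 scale. The count of 7 was smaller without either library labelled Sel1L SynCre and without Sel1L fl/fl 2. Those fits leave 1 library in a label, so their counts are not given.

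Of 18 glutamate receptor genes tested, 1 was higher and 3 lower at an unadjusted p below 0.05, beside 4.59% and 3.26% of all genes tested, and 0 passed (median -0.12). *Grik4* was the higher one, at 117, 172, 241 and 228 CPM (0.67, SE 0.162, edgeR adjusted p = 0.332). Its level was 160, 234, 356 and 282 CPM in nuclei with exactly 3 markers and 82.9, 100, 89.2 and 152 CPM in nuclei with 4 or more. *Grin3a* was at 43.4, 58.8, 36.3 and 31.9 CPM, *Grm3* at 109, 101, 87.7 and 83.3 CPM and *Grm8*, a presynaptic metabotropic receptor gene, at 177, 166, 144 and 120 CPM. *Grm8* passed against DG (-1.19, SE 0.189, edgeR adjusted p = 0.00558), where it was at 97.9, 55.9, 142 and 126 CPM. Of 26 voltage-gated channel genes, 6 were lower at an unadjusted p below 0.05, as were 3.26% of all genes tested, and 0 passed (median -0.09). Among them were the calcium channel gene *Cacna1d* at 439, 474, 338 and 408 CPM and the sodium channel genes *Scn2a* at 318, 389, 285 and 295 CPM and *Scn1a* at 215, 233, 191 and 190 CPM. Of 19 postsynaptic kinases and scaffolds, 1, *Homer2*, was lower at an unadjusted p below 0.05 (3.26% of all genes tested), at 142, 133, 120 and 104 CPM (median -0.03).

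Of 15 genes used as CA1 or hippocampal markers outside the rule, 2 were higher and 3 lower at an unadjusted p below 0.05, beside 4.59% and 3.26% of all genes tested, and 0 passed (median -0.13). *Spink8*, a protease inhibitor gene of CA1, was at 10.5, 21.7, 31.2 and 30.2 CPM and *Sox5* at 214, 265, 297 and 301 CPM. *Lmo3* was at 202, 238, 175 and 147 CPM and *Man1a* at 416, 490, 411 and 336 CPM. *Lmo3* overlaps *B230110G15Rik*, a gene of the rule, on the opposite strand, and the use of strand in counting is not known. *B230110G15Rik* had a UMI in 33.8%, 40.9%, 21.6% and 21.3% of CA1 nuclei. Against DG, 2 of 15 passed with the smaller fold change in CA1 (0.849% of all genes tested), *Man1a* and *Sox5* (-0.98, SE 0.225, edgeR adjusted p = 0.049).

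Markers of other cells were measured in the same CA1 nuclei. All 10 oligodendrocyte markers were detected and tested, 9 had an unadjusted p below 0.05, all with a negative fold change (3.26% of all genes tested), and 0 passed (median -1.41). Their summed level was 377, 166, 119 and 141 CPM, led by *Mbp*, with the library labelled Sel1L fl/fl 1 above the others. *Mog*, a myelin surface protein gene, was at 17.1, 8.92, 1.93 and 4.14 CPM and *Mal* at 10.7, 4.46, 0.643 and 1.46 CPM. *Opalin* had 76, 11, 1 and 2 UMIs, a ratio of 17.7 between fl/fl and SynCre (95% exact binomial interval 5.85 to 87.4, counting error only). At 9.21, 3.07, 0.321 and 0.487 CPM, this ratio rests mostly on the library labelled Sel1L fl/fl 1. Without marked doublets 6 of these genes could be tested, 1 was higher and 1 lower at an unadjusted p below 0.05, and the median was 0.07. The share of all genes in that fit is not given here, so these counts are not read as a result. Without the library labelled Sel1L fl/fl 1 the median was -0.42, and without Sel1L fl/fl 2 it was -1.88. The lower level was not particular to CA1. In DG the same markers summed to 802, 429, 249 and 264 CPM, at a median log2 fold change of -2.15. Oligodendrocyte nuclei themselves numbered 2255, 1279, 440 and 399 in the 4 libraries.

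Summed levels of the other cell types overlapped between the labels for astrocytes, microglia, oligodendrocyte precursors, endothelium, interneurons and subiculum, and were slightly higher in both SynCre libraries for cortical glutamatergic neurons. Astrocyte markers (8 genes, led by *Slc1a2*) summed to 187, 144, 181 and 169 CPM, microglia markers (8, led by *P2ry12*) to 61.2, 68.6, 94.2 and 54.5 CPM, markers of oligodendrocyte precursors (6, led by *Lhfpl3*) to 81.6, 49.9, 23.1 and 73.8 CPM and endothelial markers (6, led by *Pecam1*) to 2.55, 1.95, 3.21 and 1.95 CPM. Interneuron markers (10, led by *Erbb4*) summed to 134, 52.1, 46.3 and 202 CPM and those of cortical glutamatergic neurons (10, led by *Hs3st4*) to 1205, 1091, 1208 and 1280 CPM. Of these 6 lists (4, 4, 4, 0, 6 and 9 genes tested, in the order given), 1 gene had an unadjusted p below 0.05, beside 7.85% of all genes tested. This was *Olig1* of the precursors, at 3.27, 3.07, 0.321 and 0.731 CPM. With 27, 11, 1 and 3 UMIs it passed the filter on low counts only through the fl/fl libraries, so its p is a description. Markers of the subiculum (6, led by *Ntng2*) summed to 53.6, 67.7, 63.6 and 70.6 CPM. Among them *Gpc3*, a glypican gene, was the 1 gene of 4 tested with an unadjusted p below 0.05, higher as were 4.59% of all genes tested. With 6, 4, 11 and 20 UMIs in CA1, it passed the filter on low counts there only through the SynCre libraries. Its CA1 p is therefore a description. *Gpc3* was at 0.727, 1.12, 3.54 and 4.87 CPM in CA1 (log2 fold change 2.25, SE 0.534, edgeR adjusted p = 0.313) and at 24.2, 24.2, 19.7 and 7.93 CPM in DG, and passed against DG (3.12, SE 0.626, edgeR adjusted p = 0.0251). The part of other cells' RNA in the differences between labels was not tested beyond these values.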

How the data were processed

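Nuclei of 4 libraries were analysed from the deposited UMI counts, which the authors made with Cell Ranger 6.1.0 on GRCm38 (submitters' processing notes) and which were whole, unnormalized counts of 32286 features. Counting of introns and strand is not given in the sources used here. Deposited nuclei numbered 12599, 8481, 8173 and 7366, and their total UMIs 122870443, 76617523, 75227337 and 74082610. The filters removed 237, 45, 101 and 132 nuclei for having at most 600 genes, then 0, 0, 7 and 3 for their mitochondrial share of at least 5%.

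UMIs were summed per library and cell set and tested in edgeR 4.0.16 (TMM, filterByExpr, quasi-likelihood F test, two-sided, prior count 0.125), with Benjamini-Hochberg adjustment over all genes tested. The test of CA1 against DG, or against nuclei with CA3 markers, was the cell set by label term with library as a block. Standard errors were the log2 fold change over the root of F. DG nuclei needed 3 of 6 markers and oligodendrocyte nuclei 3 of 10 markers with *Slc17a7* at 0. CPM were scaled by summed UMIs alone. Marked doublets (Scrublet in scanpy 1.11.5) stayed in the main tests. Genes used by the rules went through the fits and the adjustment and were then left out of all counts of genes tested. They numbered 7 in CA1, 14 against DG and 14 against nuclei with CA3 markers. Alternatives were DESeq2 1.42.0, other edgeR tests, normalization and filters, stricter and looser gates, thinning, removal of marked doublets, a replicate block and each library left out. The scripts were tested on simulated data. Signs and sizes of planted changes were recovered, but most planted 2-fold differences between cell sets did not pass, so a gene that did not pass there may still differ. The first criterion of that test asked for more of them to pass, and it was replaced by checks of sign, size and false calls after this was seen. Shares were compared by exact permutation with 95% Wilson intervals. Positions came from GENCODE vM21 and sequences from RefSeq GRCm38.p6. Genes named are the 10 of lowest p per direction with at least 20 counts, up to 10 per direction past the threshold, and, from each list, the 4 of lowest p and 2 of highest CPM and all ERAD genes. Other genes named were chosen after their values were seen. Some genes that the rule names are not reported here. The members and lists were chosen with earlier results of these data known. With 2 mice per label, p-values measure the spread between these mice. Other tools were R 4.3.3, limma 3.58.1, scipy 1.17.1, numpy 2.4.6, pandas 2.3.3 and matplotlib 3.10.9 in Python 3.11.15.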

Additional observations from a re-analysis of the deposited data

Results flagged for a closer look

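The difference between labels was itself tested between CA1 and DG nuclei of the same mice, and 139 genes passed, which marks them for a closer look. The differences of the 10 genes of lowest p with the smaller fold change in CA1 were -1.95 (*Galntl6*), -1.66 (*Dnajc3*), -1.54 (*Hsp90b1*), -3.02 (*Creb3l2*), -2.54 (*Gm10754*), -1.21 (*Sel1l*), -2.40 (*Slc7a1*), -1.22 (*Cntnap2*), -1.36 (*Ndst3*) and -1.90 (*Man1a*) on the log2 scale. Those of the 10 with the larger fold change in CA1 were 1.47 (*6530403H02Rik*), 1.27 (*Smoc2*), 1.75 (*Slc26a10*), 1.74 (*Cotl1*), 0.94 (*Trpm3*), 1.09 (*Ccbe1*), 0.76 (*Cntnap5b*), 3.01 (*Capn3*), 0.81 (*Tafa2*) and 0.63 (*Gm28376*). *Capn3* was below the filter on low counts in CA1 and was tested only through its DG counts. Against nuclei with CA3 markers, 2 genes passed, *Plcxd3* at 1.10 and *Mei4* at -1.23. Cre RNA, which is not part of the comparison of the labels in CA1, had 15 UMIs in 12 CA1 nuclei of the library labelled Sel1L fl/fl 1, above the 0 UMIs of the library labelled Sel1L fl/fl 2.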

How the results depend on the processing

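The direct comparison of the labels in CA1, with 0 genes passing, gave 13 with DESeq2, 53 with the likelihood ratio test, 3 with library size alone (*1700016P03Rik*, *C030029H02Rik* and *Nnat*), 1 with 4 or more markers and 1 in thinned pseudobulks (*1700016P03Rik* in both), 3 with 2 or more markers (*1700016P03Rik*, *Zfp804b* and *Derl3*) and 6 without marked doublets. With 1 library left out it was 1 to 52, with the lone library assumed to vary like the others. Against DG, with 139 passing, it was 19 with DESeq2, 286 with the likelihood ratio test, 1 with no filter on low counts (*Galntl6*), 27 with 4 or more CA1 markers, 0 with 4 DG markers, and 59 (without Sel1L SynCre 1) to 141 with 1 library left out. Against nuclei with CA3 markers, with 2 passing, it was 0 with DESeq2, 44 with the likelihood ratio test, 15 with at least 10 counts in every library, 0 with no filter, 7 with 2 or more CA1 markers, 11 without marked doublets, 9 in thinned pseudobulks, 1 (*Plcxd3*) and 0 with 1 CA3 marker more and fewer, and 0 to 58 with 1 library left out. Same-numbered libraries share the sex of the mouse, which the labels do not give as a pairing. The correlation of their deviations was 0.102 over 13093 genes and -0.03 without sex-linked genes, over 2 pairs. With a replicate block, which is also a block on sex, the counts were 0, 29 and 0.

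The difference in the CA1 share of kept nuclei, -0.350 percentage points, was 0.351 with 2 or more markers and ran from -0.920 to 0.220 with 1 library left out. That in the share of CA1 nuclei with a *Sel1l* UMI, 2.39 points, was -1.64 at 6000 UMIs and -0.802 unthinned, and -1.23 to 6.005 with 1 library left out. The difference in the share of glutamatergic nuclei, -1.28 points, kept its direction but was -0.173 with 2 or more markers, -0.479 after thinning, and -2.40 to -0.154 with 1 library left out (-0.154 without Sel1L fl/fl 1). That in the *Derl3* share, 1.01 points, kept its direction at 2.80 unthinned, 0.633 with 4 or more markers and 0.435 to 1.58 with 1 library left out. In CA1, *Syn1*, at 0.01, changed sign to -0.00878 with no filter, -0.0322 without marked doublets and -0.00606 in thinned pseudobulks, and ran from -0.0775 to 0.0822 with 1 library left out. *Sel1l*, at 0.08, was -0.0520 with 4 or more markers and ran from -0.0125 to 0.164 with 1 library left out. Against DG, *Homer1* was 0.10 and 0.14, and *1700016P03Rik* 0.62 and 0.53, without marked doublets and with 4 DG markers, and *1700016P03Rik* was 0.0411 with 2 DG markers. *Gm10754* was 1.91 and *Man1a* 0.28 with 4 DG markers. The causes were not tested. Of 399 values of 26 named genes in CA1, 328 kept direction and call, as did 336 of 446 values of 25 genes against DG and 22 of 36 of 2 genes against nuclei with CA3 markers. Counts were low for *Derl3* in CA1, with 4 and 17 UMIs in the labels, although the SynCre libraries held more UMIs in CA1 than in DG, and for *C030029H02Rik* and *Opalin*, with 1 and 3 UMIs in the SynCre libraries.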
